A study of Mus musculus with 6 samples.

Results

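The S100 calcium-binding proteins and the neutrophil granule proteins were followed as 10 genes across splenic dendritic cells, with S100a8, S100a9, S100a4 and S100a6 on one side and the granule genes Lcn2, Ngp, Camp, Ltf, Elane and Mpo on the other. The genes were taken by name, as every probe set of the array whose platform annotation gave 1 of these 10 symbols and no other. Each gene had 1 probe set, so 10 of the 45037 probe sets tested, and 10 of the 17097 genes with a symbol, were members. The knockout group was CD11c-positive cells sorted by flow cytometry from the spleens of C57Bl/6 mice whose genotype is labelled Map3k7CreER, in which tamoxifen given in vivo for 3 days was used to delete Map3k7, the gene of the kinase TAK1. The wild-type group was the same sorted population from C57Bl/6 mice given the same tamoxifen. Each group had 3 samples with 1 Affymetrix array each. No label ties a sample to an animal of its own, so each p-value rests on the spread among these 6 arrays, which may be technical. The labels give neither the animals' ages nor the promoter that drives the Cre, and they name no Cre in the wild type, so the effects of Map3k7 loss, of Cre and of deletion outside dendritic cells cannot be told apart.

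S100a8 and S100a9 form calprotectin, a heterodimer that fills the cytosol of neutrophils and monocytes, takes up zinc and manganese ions, and acts outside the cell on Toll-like receptor 4 and on the receptor for advanced glycation end products. S100a4 and S100a6 belong to the same family but are expressed in many cell types, including dendritic cells. The granule proteins are made in waves as neutrophils mature in the marrow: Mpo and Elane enter the azurophil granules of promyelocytes, and Ltf, Camp, Ngp and Lcn2 enter the specific granules of later stages. Mature neutrophils carry much calprotectin mRNA and little mRNA for the azurophil proteins.

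Sequence upstream of 4 of these genes is shown because S100a8, S100a9 and Lcn2 had the 3 largest positive differences of the set while S100a4 was bright and did not share that direction. The RefSeq table for GRCm38.p6 held a promoter for 10 of the 10 members, and the 250 bases before the annotated start are printed 5′ to 3′ on the strand of the gene. S100a8 lies on the plus strand at chr3:90668821-90669070, S100a9 on the minus strand at chr3:90695722-90695971, Lcn2 on the minus strand at chr2:32387740-32387989 and S100a4 on the plus strand at chr3:90603520-90603769. Capitals mark letters that matched 1 of 4 motifs, the C/EBP motif TTGCNNAA, the PU.1 motif GAGGAA and the NF-kB motif on either strand, and TATAAA on the strand of the gene.
S100a8: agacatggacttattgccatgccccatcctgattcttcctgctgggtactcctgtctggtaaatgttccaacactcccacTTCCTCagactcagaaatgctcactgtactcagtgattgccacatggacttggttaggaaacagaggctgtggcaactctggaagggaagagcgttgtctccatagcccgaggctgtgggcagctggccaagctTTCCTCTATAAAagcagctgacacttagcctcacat
S100a9: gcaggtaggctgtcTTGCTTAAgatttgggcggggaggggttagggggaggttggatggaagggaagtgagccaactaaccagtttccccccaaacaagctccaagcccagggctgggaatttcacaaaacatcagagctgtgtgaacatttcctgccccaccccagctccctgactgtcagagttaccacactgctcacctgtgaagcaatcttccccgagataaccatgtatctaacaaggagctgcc
Lcn2: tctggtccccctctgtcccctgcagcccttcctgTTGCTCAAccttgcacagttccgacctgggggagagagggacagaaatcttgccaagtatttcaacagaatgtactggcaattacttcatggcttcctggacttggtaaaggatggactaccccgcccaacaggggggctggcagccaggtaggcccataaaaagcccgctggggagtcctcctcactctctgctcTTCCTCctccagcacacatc
S100a4: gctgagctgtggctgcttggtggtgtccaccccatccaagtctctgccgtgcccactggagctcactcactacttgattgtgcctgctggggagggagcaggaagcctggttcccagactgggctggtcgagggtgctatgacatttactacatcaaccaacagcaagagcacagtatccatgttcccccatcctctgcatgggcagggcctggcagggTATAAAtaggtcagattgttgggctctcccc

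In the S100a8 window TATAAA began 30 bases before the start and adjoined a PU.1 match that began 36 bases before it, with a second PU.1 match at 170 bases. The S100a9 window held a single C/EBP match at 236 bases. Lcn2 held a C/EBP match at 216 bases and a PU.1 match at 20 bases, and S100a4 held TATAAA at 31 bases. Over all members the C/EBP letters were present in 4 of 10 windows (S100a9, Lcn2, Ngp and Ltf), against 9.56% of the 32851 promoters of the table. The PU.1 letters were present in 5 of 10, against 23.3%, TATAAA in 2 of 10, against 7.59%, and the NF-kB letters in 0 of 10, against 1.41%. These are exact matches of letters in short windows and do not show binding. Looser spellings of the motifs, that for NF-kB among them, were not searched. On chromosome 3 of that assembly S100a4, S100a5, S100a6, S100a7a, S100a8 and S100a9 are consecutive protein-coding genes in this order, so all 4 S100 members lie in 1 cluster.

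Map3k7 fell on 3 of its 5 probe sets, and on the brightest of these it averaged 4.05 in knockout cells and 6.65 in wild-type cells (log2 difference -2.60, SE 0.19, limma adjusted p = 0.00128). Medians over all probe sets of an array were 3.77 to 3.81 (log2), and genes are called dim here where they read close to that, since no detection call was given. Dendritic cell markers were bright. The integrin Itgax, which encodes CD11c, ran from 10.82 to 11.01 in knockout cells and from 10.99 to 11.31 in wild-type cells. Flt3, the receptor for the growth factor that sustains dendritic cells, ran from 11.32 to 11.55 in knockout cells and from 10.90 to 11.26 in wild-type cells. The MHC class II gene H2-Ab1 ran from 13.53 to 13.56 in knockout cells and from 13.43 to 13.77 in wild-type cells.

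S100a8 and S100a9 read higher in knockout cells by 4.87-fold and 2.88-fold on average, with a wide spread between arrays. S100a4 and S100a6 were bright in all arrays, with differences of -0.25 and -0.05 on the log2 scale. Among the granule genes Lcn2 read higher by 0.73 on the log2 scale, with wild-type arrays so dim that no fold is given. Camp, Ltf, Elane and Mpo were dim in both groups, and Ngp was dim in all arrays but knockout replicate 2.

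With limma and Benjamini-Hochberg adjustment over all probe sets, 0 of the 10 members passed an adjusted p of 0.05, where 1.19% of all probe sets passed. At an unadjusted p under 0.05 the count was 3 of 10 (S100a8, S100a9 and Lcn2), against 12.3% of all probe sets. Every knockout array lay above every wild-type array for 2 members, S100a8 and Lcn2, against 8.64% of probe sets. S100a4 was the 1 member with the reverse order, all knockout values under all wild-type values, against 8.83%. The members were chosen with earlier results of these data known, so these counts and shares are description only.

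**Figure D1:**
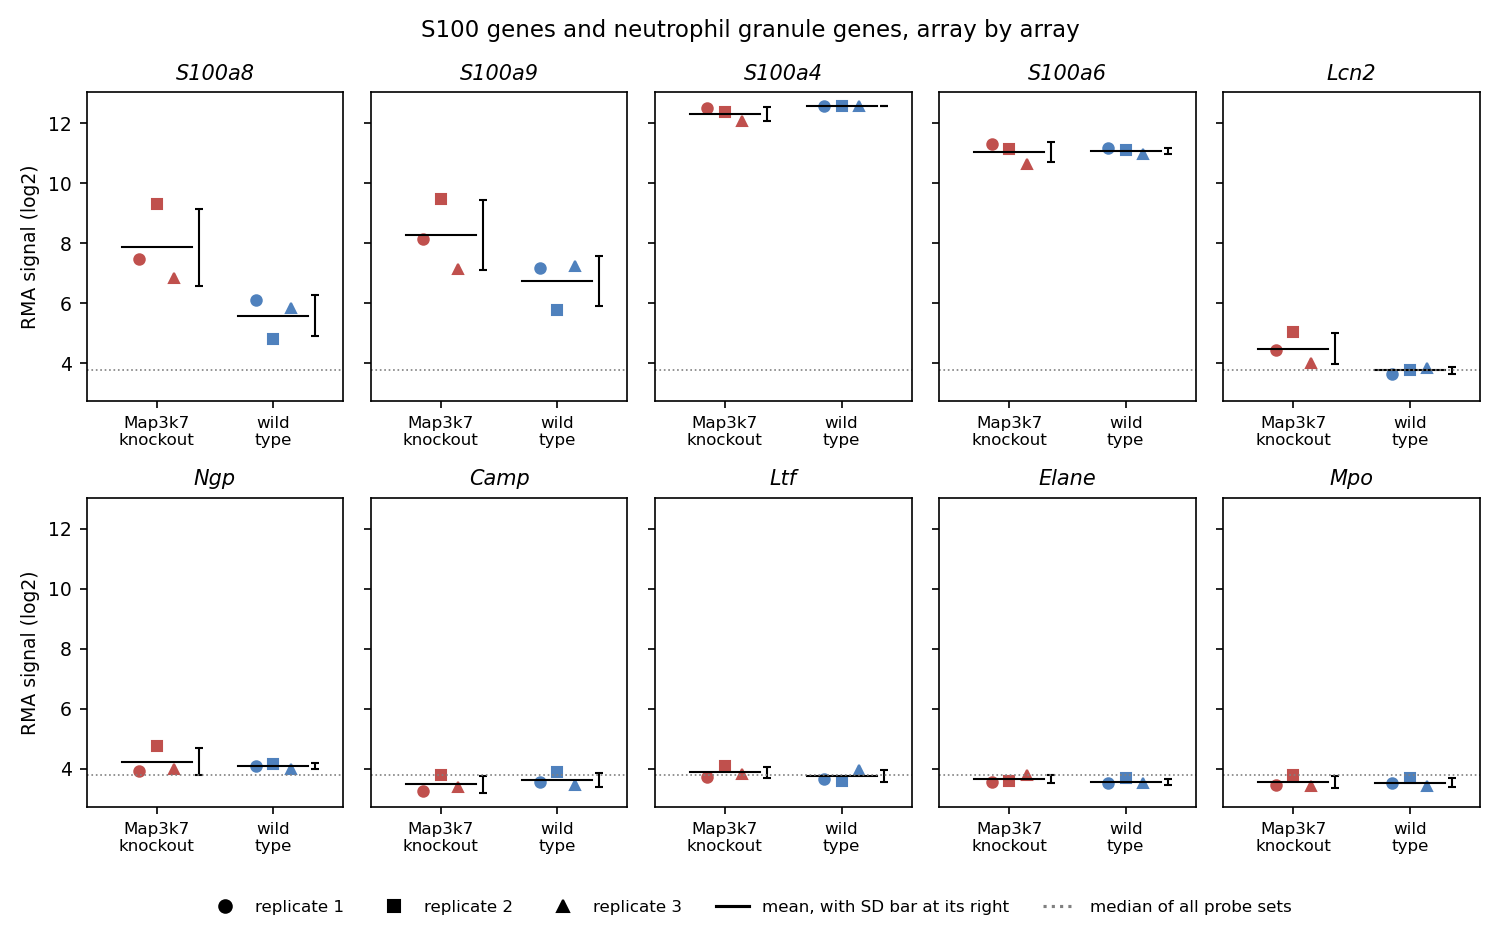
RMA signal on the log2 scale (vertical axis) of the 10 genes in each of the 3 Map3k7 knockout and 3 wild-type arrays, with group means (lines), SD bars and the median of all probe sets (dotted). S100a8 and S100a9 sat at 4.81 to 9.48 with a wide spread, S100a4 and S100a6 at 10.65 to 12.57, and the granule genes at 3.25 to 5.03.

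S100a8, the smaller calprotectin subunit, read 7.48, 9.29 and 6.83 in knockout replicates 1, 2 and 3, against 6.10, 4.81 and 5.84 in wild-type replicates 1, 2 and 3. The groups did not overlap, but replicate 2 was the highest of the knockout arrays and replicate 2 the lowest of the wild-type arrays, and each stood at some distance from the rest of its group. The means were 7.87 ± 1.28 in knockout cells and 5.58 ± 0.68 in wild-type cells (SD, n = 3 each), a difference of 2.28 (SE 0.60, 95% confidence interval 0.89 to 3.68). That difference did not pass over all probe sets (limma adjusted p = 0.147), and the 2-sided exact permutation p was 0.1, the smallest that 3 against 3 arrays can give. It was larger than the difference of 99.9% of all probe sets, and the SD among its knockout arrays was larger than that of 99.95% of them.

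S100a9, the larger calprotectin subunit, read 8.14, 9.48 and 7.16 in knockout cells, against 7.17, 5.77 and 7.25 in wild-type cells. Here the groups overlapped, since knockout replicate 3 lay below wild-type replicates 1 and 3, but the same arrays as for S100a8 were the highest and the lowest. The difference was 1.53 (SE 0.60, 95% confidence interval 0.15 to 2.91, limma adjusted p = 0.343, exact permutation p = 0.3). Without knockout replicate 2 it was 0.92, and the S100a8 difference was 1.57.

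The profile of S100a9 over the 6 arrays was nearer to that of S100a8 than the profile of any other of the 17097 genes. Likeness was measured as the mean absolute difference between 2 profiles, each centred on its own mean, and for this pair it was 0.38. Outside the members the nearest genes to S100a8 were Trem1, a receptor that amplifies inflammatory signals in neutrophils and monocytes, at 0.45, the Fc receptor Fcgr3 at 0.46, the chemokine receptor Ccr1 at 0.48, the mannose receptor Mrc1 at 0.48 and the haemoglobin scavenger receptor Cd163 at 0.54. Since they were chosen for their likeness to S100a8, the direction of these 5 genes between the groups follows from the choice. Lcn2 was the next member in likeness to S100a8, at 0.78 and rank 112.

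S100a4, which binds the heavy chain of non-muscle myosin, read 12.52, 12.37 and 12.06 in knockout cells, against 12.57, 12.57 and 12.56 in wild-type cells. All knockout arrays lay below all wild-type arrays. Relative to the wild-type mean, knockout replicates 1, 2 and 3 stood at -0.05, -0.20 and -0.51. The difference of -0.25 (SE 0.13, 95% confidence interval -0.55 to 0.04) did not pass (limma adjusted p = 0.496, exact permutation p = 0.1). The wild-type arrays were nearly identical for this gene: their SD was 0.0026, and 13 of the 45037 probe sets had a smaller one. Without knockout replicate 3 the difference was -0.13.

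S100a6, or calcyclin, read 11.30, 11.15 and 10.65 in knockout cells, against 11.16, 11.10 and 10.98 in wild-type cells. Knockout replicate 3 was again the lowest array, and knockout replicate 1 was the highest. The difference of -0.05 (SE 0.17, limma adjusted p = 0.951) had a 95% confidence interval of -0.44 to 0.34, that is from 0.738-fold to 1.27-fold. Without knockout replicate 3 it was 0.14.

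The gene most like S100a4 outside the members was Gltp, the glycolipid transfer protein, with a distance of 0.0092 between the centred profiles, followed by Fam118b (0.025), the signalling adaptor Traf5 (0.026), the spliceosome protein Snrpd2 (0.029) and S100a13 (0.031). Their differences were -0.30 to -0.21 and did not pass, and their lowest array, knockout replicate 3, follows from the choice. In all, 14 S100 family genes were measured, 4 members and 10 others. The lowest array was knockout replicate 3 for 9 of the 14, where that array was the lowest for 20.7% of all probe sets. That share was not taken at a like level. The 9 include S100a5, S100b and S100g, whose mean levels of 3.55, 3.53 and 3.18 lie under the array medians. Differences were negative for 11 of the 14 and positive for 3, S100a8, S100a9 and S100a10, and 0 of 14 passed by limma with 4 at an unadjusted p under 0.05, against 12.3% of all probe sets.

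Among the other S100 genes the largest differences were -0.34 for S100a11 (limma adjusted p = 0.291), -0.30 for S100a13 (adjusted p = 0.428) and -0.26 for the dim S100b (adjusted p = 0.267). S100a10, the annexin A2 partner, read 9.92, 9.92 and 8.70 in knockout cells, against 9.43, 9.46 and 9.01 in wild-type cells, and replicate 3 was the low array of both groups. S100a5, which lies between S100a4 and S100a6 on the chromosome, read 3.45 to 3.53 in knockout cells and 3.51 to 3.68 in wild-type cells, below the array medians in every array. Of 9 genes for S100 receptors and binding partners, 0 passed by limma, and 3 had an unadjusted p under 0.05, which 12.3% of all probe sets had. These were the S100a6-binding protein Cacybp (-0.55, adjusted p = 0.139), the annexins Anxa11 (0.47, adjusted p = 0.206) and Anxa6 (-0.33, adjusted p = 0.364). Of the calprotectin receptors, Tlr4 read 4.18 to 4.37 in knockout cells and 4.09 to 4.14 in wild-type cells, and Ager 4.05 to 4.53 in knockout cells and 4.14 to 4.35 in wild-type cells. Both were dim.

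**Figure D2:**
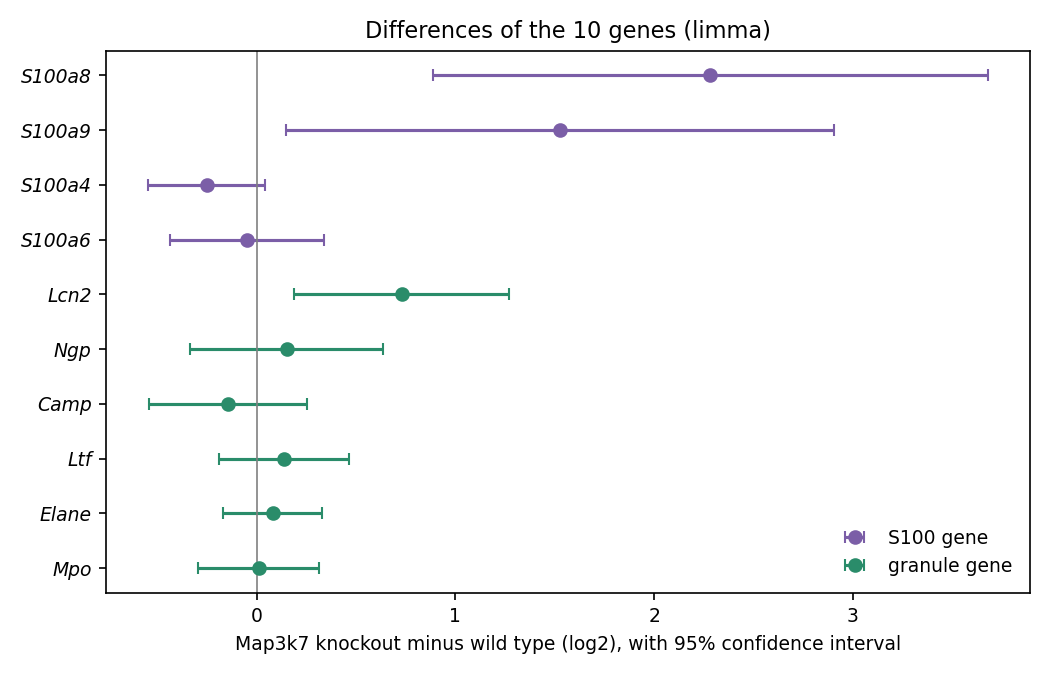
Map3k7 knockout minus wild type on the log2 scale (horizontal axis) for the 10 genes, with 95% confidence intervals from the limma fit (3 arrays a group). The intervals of S100a8, S100a9 and Lcn2 lie above 0 before adjustment over all probe sets, and the other 7 include 0.

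Lcn2, or neutrophil gelatinase-associated lipocalin, which withholds iron from bacteria by binding their siderophores, was the granule gene with the largest difference. It read 4.44, 5.03 and 4.001 in knockout cells, against 3.64, 3.79 and 3.85 in wild-type cells. The groups did not overlap, and the wild-type arrays lay at the level of the median probe set. The difference was 0.73 (SE 0.23, 95% confidence interval 0.19 to 1.27, limma adjusted p = 0.229, exact permutation p = 0.1). Without knockout replicate 2 it was 0.46.

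Ngp, a granule protein related to the cathelicidins, read 3.94, 4.77 and 4.01 in knockout cells, against 4.10, 4.18 and 3.996 in wild-type cells. Knockout replicate 2 alone stood above the others, by 0.80 over the mean of the other knockout arrays, and the remaining knockout arrays lay within 0.15 of the wild-type mean. The difference was 0.15 (SE 0.21, limma adjusted p = 0.861), and without knockout replicate 2 it was -0.11. The genes most like Ngp over the 6 arrays were Gja1 (distance 0.042), Apol9a (0.055), Anks4b (0.07), Iqcf1 (0.075) and Tmem186 (0.075). That their highest array was knockout replicate 2 follows from the choice, and none passed (limma adjusted p from 0.648 to 0.868).

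Camp, the precursor of the cathelicidin antimicrobial peptide, read 3.25, 3.804 and 3.40 in knockout cells, against 3.55, 3.88 and 3.45 in wild-type cells. Replicate 2 was the highest array in each group. Ltf, the iron-binding lactoferrin, read 3.72, 4.09 and 3.84 in knockout cells, against 3.66, 3.60 and 3.98 in wild-type cells. The groups overlapped for both genes, with differences of -0.14 for Camp (SE 0.17, limma adjusted p = 0.834) and 0.14 for Ltf (SE 0.14, limma adjusted p = 0.801).

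The azurophil genes were dim in every array. Elane, neutrophil elastase, read 3.58, 3.59 and 3.81 in knockout cells, against 3.53, 3.69 and 3.51 in wild-type cells. Mpo, myeloperoxidase, read 3.46, 3.79 and 3.42 in knockout cells, against 3.53, 3.69 and 3.42 in wild-type cells. Their differences were 0.08 (SE 0.11, limma adjusted p = 0.853) and 0.01 (SE 0.13, limma adjusted p = 0.988). Over Ngp, Camp, Ltf, Elane and Mpo the 95% confidence intervals together ran from -0.54 to 0.64 on the log2 RMA scale. With signal this near the array medians, they do not bound the change of the transcripts.

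Set side by side, the median difference was 0.74 over the 4 S100 members and 0.11 over the 6 granule members, beside -0.02 over all 17097 genes. The medians without knockout replicate 2 were 0.40 for the S100 members and -0.04 for the granule members. The S100 median was -0.049 without the S100a8 probe set, whose name ends in s. The S100 members were unlike each other: the mean difference was 1.90 for S100a8 and S100a9, and -0.15 for S100a4 and S100a6. The 6 granule genes had a mean level of 3.73, 4.18 and 3.75 in knockout replicates 1, 2 and 3, against 3.67, 3.81 and 3.70 in wild-type cells. Without Lcn2 these means were 3.59, 4.01 and 3.70 in knockout cells and 3.67, 3.81 and 3.67 in wild-type cells. Knockout replicate 2 had the highest mean in both versions, and the groups overlapped in both.

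Knockout replicate 2 was the highest of the 6 arrays for 6 of the 10 members, and 4 of these were granule genes (Lcn2, Ngp, Ltf and Mpo). The same array was the highest for 13.8% of all probe sets. Relative to the wild-type mean it stood at 3.71 for S100a8, 2.75 for S100a9, 1.27 for Lcn2, 0.68 for Ngp and 0.35 for Ltf. Knockout replicate 1 stood at 1.90, 1.41, 0.68, -0.15 and -0.03 for these genes. In knockout replicate 3 the values were 1.25, 0.43, 0.24, -0.08 and 0.10. The order of knockout arrays was therefore 2, 1 and 3 for S100a8, S100a9 and Lcn2, and replicate 1 was no longer above replicate 3 for Ngp and Ltf.

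**Figure D3:**
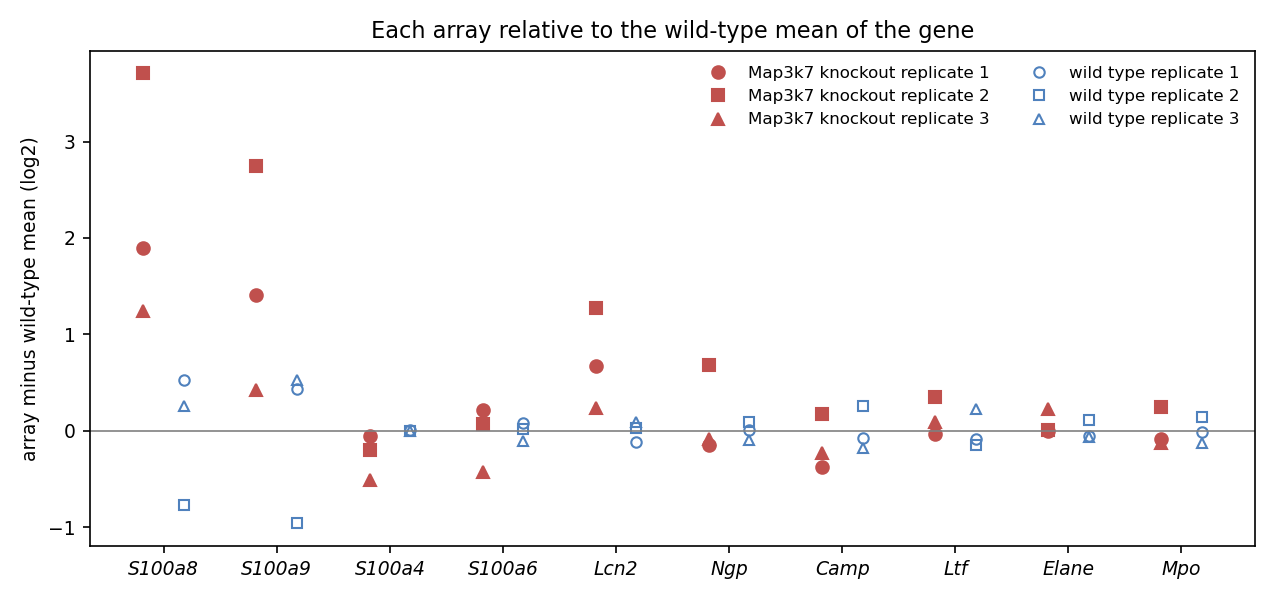
Each array minus the wild-type mean of the gene on the log2 scale (vertical axis), with filled symbols for the 3 Map3k7 knockout arrays and open symbols for the 3 wild-type arrays. Knockout replicate 2 stands highest for S100a8 (3.71), S100a9 (2.75), Lcn2 (1.27) and Ngp (0.68), and knockout replicate 3 lowest for S100a4 (-0.51) and S100a6 (-0.43).

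Other granule genes were read from lists, which also hold some genes whose proteins are not granule contents. Of 7 measured genes of the azurophil list, 1 rose, 0 fell and 6 did not pass. Their median was -0.03, and of all genes 1.08% rose and 0.591% fell. The 1 that rose was Ctsc, the lysosomal protease that activates neutrophil serine proteases and is also made by other leukocytes, with a mean of 12.11 ± 0.06 in knockout cells and 11.44 ± 0.14 in wild-type cells (SD, n = 3 each; difference 0.67, limma adjusted p = 0.0295). Ctsc had 3 probe sets, and of these 1 passed, the brightest. The Ctsc difference was 0.67 without knockout replicate 2 (limma adjusted p = 0.139) and 0.64 without knockout replicate 3 (limma adjusted p = 0.0853). Over all probe sets the calls numbered 538 with 6 arrays, 125 without knockout replicate 2 and 302 without knockout replicate 3. Prtn3, Ctsg and Ms4a3, which are also on the granulocyte progenitor list, stayed between 3.23 and 3.79 in all 6 arrays. The next largest differences were 0.22 for the cystatin Cst7 and -0.16 for the protease inhibitor Serpinb1a.

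Of 18 measured genes of the specific, gelatinase and secretory list, 1 rose, 0 fell and 17 did not pass. Their median was 0.03, and of all genes 1.08% rose and 0.591% fell. The 1 that rose was Itgam, the CD11b integrin chain of neutrophils, monocytes and a dendritic cell subset, which read 6.95, 7.88 and 7.60 in knockout cells, against 6.41, 5.98 and 6.12 in wild-type cells (difference 1.31, SE 0.23, limma adjusted p = 0.0466). The Itgam difference was 1.11 without knockout replicate 2 (limma adjusted p = 0.163) and 1.25 without knockout replicate 3 (limma adjusted p = 0.122). The metalloprotease gene Adam8 stood at -0.88 (limma adjusted p = 0.058). Mmp8, neutrophil collagenase, read 3.72, 4.58 and 3.76 in knockout cells, against 3.22, 3.09 and 3.23 in wild-type cells (difference 0.84, SE 0.22, limma adjusted p = 0.139). Chil3, a chitinase-like protein, read 4.12, 5.78 and 3.84 in knockout cells, against 4.81, 3.86 and 3.88 in wild-type cells. Haptoglobin, Hp, read 4.29, 5.27 and 4.21 in knockout cells, against 4.24, 3.996 and 4.004 in wild-type cells. For Mmp8, Chil3 and Hp knockout replicate 2 was the highest array, and without it the differences were 0.56 for Mmp8, -0.20 for Chil3 and 0.17 for Hp. Chil3 and Hp were picked for that peak. It was shared by 10 of the 31 measured genes of the granule members and lists, where 13.8% of all probe sets had it. Of the 10, 4 were members (Lcn2, Ngp, Ltf and Mpo), 6 came from this list and 0 from the azurophil list. Other genes of the list stood the other way, none past the threshold. Pglyrp1, a peptidoglycan-binding protein, read 6.67, 6.198 and 5.51 in knockout cells, against 6.74, 7.05 and 6.95 in wild-type cells, a difference of -0.79 with no overlap (limma adjusted p = 0.251). The gelatinase Mmp9 stood at -0.77 (limma adjusted p = 0.293) and lysozyme, Lyz2, at -0.54 (limma adjusted p = 0.351).

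Of 10 transcription factors of granule and myeloid genes, 2 rose and 0 fell (median 0.04), where 1.08% of all genes rose and 0.591% fell. Cebpb, a C/EBP factor of stress granulopoiesis and macrophages, read 10.07, 10.40 and 10.47 in knockout cells, against 9.38, 8.91 and 9.45 in wild-type cells (difference 1.06, SE 0.17, limma adjusted p = 0.034). Cebpd, a related C/EBP factor, read 7.16, 7.50 and 7.36 in knockout cells, against 6.43, 6.42 and 6.45 in wild-type cells (difference 0.91, SE 0.11, limma adjusted p = 0.0112). Cebpb had 3 probe sets, and of these 2 passed, the brightest among them. The Cebpb difference was 1.02 without knockout replicate 2 (limma adjusted p = 0.164), and without knockout replicate 3 it was 0.98 (limma adjusted p = 0.0899). For Cebpd these differences were 0.83 (limma adjusted p = 0.0629) and 0.90 (limma adjusted p = 0.036). Irf8, which favours dendritic cells and monocytes over neutrophils, stood at -0.59 (limma adjusted p = 0.121). Of 8 receptors and inhibitors of granule proteins 0 passed by limma, none of them at an unadjusted p under 0.05, and the largest differences were 0.49 for Lrp1, 0.35 for Fpr2 and -0.17 for Itln1.

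**Figure D4:**
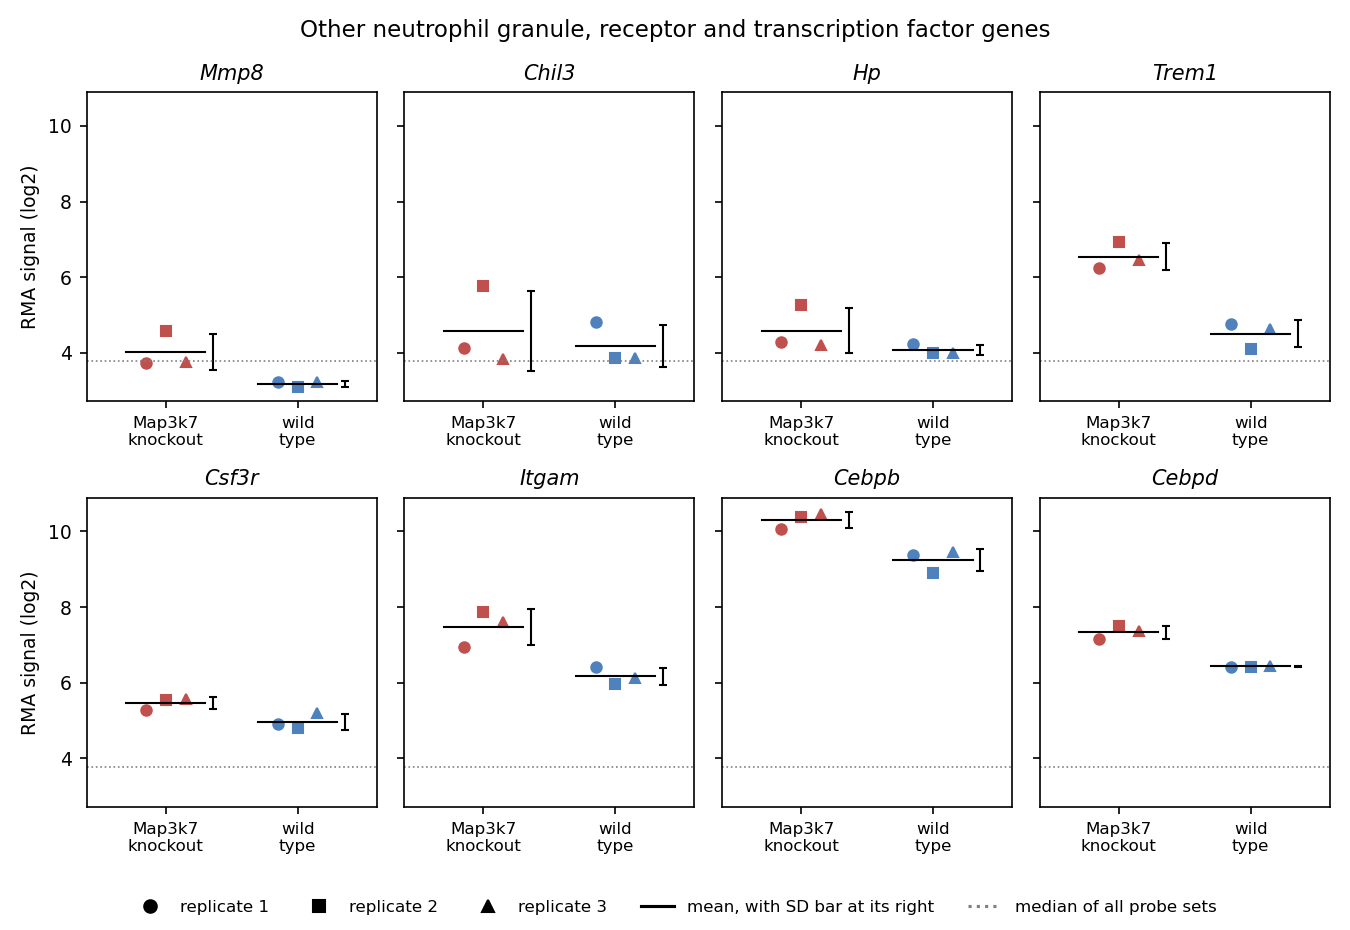
RMA signal on the log2 scale (vertical axis) of 8 further genes in each array, with group means (lines), SD bars and the median of all probe sets (dotted). Mmp8, Chil3 and Hp have their highest value in knockout replicate 2 (4.58, 5.78 and 5.27), while Cebpb and Cebpd lie higher in all 3 knockout arrays.

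Markers of other cells the CD11c gate could hold were set beside these values. In bulk RNA, fewer cells of a type and less RNA per cell cannot be told apart. Of 12 measured neutrophil markers outside the granules, 1 rose, 1 fell and 10 did not pass. Of all genes, 1.08% rose and 0.591% fell. The mean level of these markers was 4.82 to 5.11 in knockout arrays and 4.54 to 4.77 in wild-type arrays. That mean includes the large difference of Trem1 and was not taken without it. By gene, 8 differences were positive and 4 negative (median 0.32). Trem1, the 1 that rose, read 6.24, 6.92 and 6.46 in knockout cells, against 4.77, 4.10 and 4.64 in wild-type cells (difference 2.04, SE 0.22, limma adjusted p = 0.0081). Its difference was 1.85 without knockout replicate 2 (limma adjusted p = 0.0359). Trem1 had 2 probe sets, and of these 1 passed, the brightest. Asprv1, a protease gene, fell by 1.88 (limma adjusted p = 0.0136), with a difference of -1.84 without knockout replicate 2 (limma adjusted p = 0.0917). Clec4e, the mincle receptor, stood at 1.66 (limma adjusted p = 0.444) with 3.69, 5.41 and 7.31 in the knockout arrays. The chemokine receptor Cxcr2 was dim, 3.51 to 3.67 in knockout cells and 3.50 to 3.76 in wild-type cells. Csf3r, the G-CSF receptor, ran from 5.28 to 5.56 in knockout cells and from 4.79 to 5.21 in wild-type cells (difference 0.49, limma adjusted p = 0.171). Ly6g was not analysed here. The part of neutrophils in the member values was not tested.

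The list means of monocyte and macrophage markers were higher in every knockout array than in any wild-type array. The monocyte mean includes the large difference of Cd14 and was not taken without it. By gene, 9 monocyte markers had a positive and 3 a negative difference (median 0.22). For macrophage markers 12 were positive and 2 negative (median 0.49), beside a median of -0.02 over all genes. For the counts that follow, 1.08% of all genes rose and 0.591% fell. Of 12 monocyte markers 1 rose and 0 fell, with a mean level of 7.83 to 7.94 in knockout arrays and 7.48 to 7.70 in wild-type arrays. The 1 was the endotoxin co-receptor Cd14, at 9.80 ± 0.23 in knockout cells and 7.71 ± 0.48 in wild-type cells (SD, n = 3 each; difference 2.09, limma adjusted p = 0.00873), and its difference was 2.12 without knockout replicate 2 (limma adjusted p = 0.0605). Fcgr1 stood at 0.81 and Cx3cr1 at -1.02, neither past the threshold. The chemokine receptor Ccr2 stood at 0.57 (limma adjusted p = 0.332) and Ly6c1 at 0.15 (limma adjusted p = 0.858). Of 14 macrophage markers 4 rose and 0 fell (Cd163, Cd5l, Mertk and Trf), with a mean level of 6.91 to 7.35 in knockout arrays and 6.57 to 6.72 in wild-type arrays. Without knockout replicate 2, 0 of the monocyte and macrophage markers passed by limma. The part of such cells in the calprotectin values was not tested.

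Of 15 dendritic cell markers 1 rose (Itgae, 1.79, limma adjusted p = 0.0211) and 0 fell, with a mean level of 10.62 to 10.79 in knockout arrays and 10.74 to 10.86 in wild-type arrays. Of all genes, 1.08% rose and 0.591% fell. The counts and these shares use the brightest probe set of each gene. On that probe set Cd8a stood at -1.47, Xcr1 at -0.81 and the transcription factor gene Zbtb46 at -0.75, none past the threshold. Of all their probe sets, 1 of 3 for Cd8a and 2 of 4 for Zbtb46 passed. Of 6 erythroid markers 1 fell and 0 rose. The 1 that fell was Hbb-b2 (-3.01, limma adjusted p = 0.0325), of whose 3 probe sets 1 passed, the brightest. Hba-a1 stood at -3.57 (1 of its 3 probe sets passed, not the brightest) and Klf1 at -0.34. Without knockout replicate 2 neither Itgae nor Hbb-b2 passed. Of 9 granulocyte progenitor markers 0 passed, with Mki67 at -0.44, Top2a at -0.42 and Myb at -0.36. All 8 measured basophil, mast cell and eosinophil markers had a mean level under 5 and 0 passed, with Siglecf at 0.45, Prg2 at -0.21 and Epx at 0.20. No B, T or NK cell marker passed. The list means of B cell and T cell markers were lower in every knockout array than in any wild-type array, but they cover few genes. Of 5 B cell markers 2 differences were positive and 3 negative, and 3 markers had a mean level under 5. The B cell mean includes the larger difference of Ms4a1 and was not taken without it. All 4 T cell differences were negative, and 2 of these markers had a mean level under 5. Differences were -0.51 for Ms4a1, -0.27 for Cd79b and -0.08 for Pax5 in the B cell list, -0.33 for Cd5, -0.25 for Cd3d and -0.13 for Cd3g in the T cell list, and 0.59 for Gzma, -0.22 for Ncr1 and -0.18 for Eomes in the NK cell list.

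**Figure D5:**
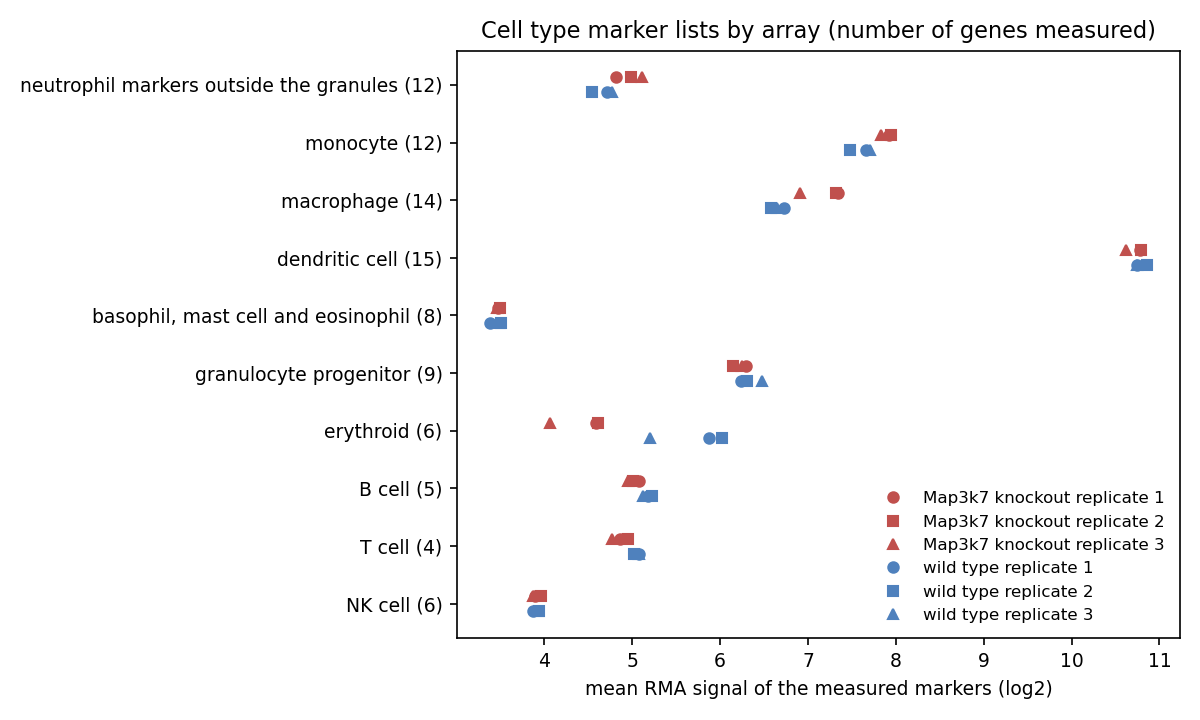
Mean RMA signal on the log2 scale (horizontal axis) of the measured genes of each cell type marker list, 1 symbol per array, with the 3 Map3k7 knockout arrays above the 3 wild-type arrays. Means of the neutrophil, monocyte and macrophage lists lie higher in all knockout arrays (4.82 to 5.11, 7.83 to 7.94 and 6.91 to 7.35). Means of the erythroid, B cell and T cell lists lie lower (4.06 to 4.61, 4.95 to 5.07 and 4.77 to 4.95). A mean can rest on 1 gene with a large difference, such as Trem1, Cd14 or Ms4a1, and no list was averaged without it.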

How the data were processed

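RNA of 6 samples (3 knockout, 3 wild type) was converted to biotin-labelled cRNA from 100 ng and hybridised to Affymetrix arrays, per the labels' protocols. The authors made log2 values with RMA, and the submitters' processing notes name Affymetrix Expression Console 1.1 as the program. RMA sets arrays to a common distribution and gives no detection call. Precision is limited by the number of arrays. No 2 arrays held identical values (0 pairs).

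Of 45141 probe sets, 104 controls were left out. A gene's level is that of its probe set with the highest mean. The S100a8 probe set ends in s and can match several transcripts. Knockout minus wild type was fitted with limma 3.58.1 in R 4.3.3 (lmFit, eBayes), p-values being adjusted by Benjamini-Hochberg across the 45037 remaining probe sets, at a threshold of 0.05. The fit was tested on simulated data. Members and lists were chosen with earlier results of these data known. From each list the text names the genes past the threshold and, with fewer than 3, those with the largest differences up to 3 in all, and it always names the defining markers and Map3k7. Chil3, Hp, S100a5, S100a10, Tlr4, Ager, Prtn3, Ctsg, Ms4a3, Pglyrp1, Mmp9, Lyz2 and Zbtb46 were chosen after their values were seen. The 5 genes nearest in profile to S100a8, S100a4 and Ngp are named too. Figures used matplotlib 3.10.9 in Python 3.11.15. The alternatives are given with their effect in the closing section.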

Additional observations from a re-analysis of the deposited data

How the results depend on the processing

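The count of members past the threshold was 0 under all alternatives run: a filter that kept probe sets from the median level up (7 of the 10 members), one that dropped probe sets whose names end in x or s (9 of 10, without S100a8), trended or robust variance, array weights, quantile normalization again, array medians subtracted, the mean of the probe sets of a gene, the replicate block and leaving out each array. The nearest to the threshold were S100a8 with trended variance (adjusted p = 0.0784, and from 0.0784 to 0.382 over its 14 alternatives) and Lcn2 without knockout replicate 3 (adjusted p = 0.0824, and from 0.0824 to 0.471 over 15). The differences of S100a8 (1.57 to 2.80), S100a9 (0.92 to 2.08), Lcn2 (0.46 to 0.97), S100a4 (-0.35 to -0.13), Camp (-0.30 to -0.01), Ltf (0.03 to 0.25) and Elane (0.0049 to 0.14) kept their sign in every alternative that measured them. Without knockout replicate 2 the difference of Ngp was -0.11 and that of Mpo -0.11, without wild-type replicate 3 that of Mpo was -0.05, and without knockout replicate 3 that of S100a6 was 0.14. With 1 array left out these 3 ran from -0.18 to 0.14 for S100a6, -0.11 to 0.30 for Ngp and -0.11 to 0.084 for Mpo. The median of the S100 members was -0.049 when probe sets with names ending in x or s were dropped, since S100a8 then drops from the 4 genes, and 0.40 to 1.11 with 1 array left out. The median of the granule members was -0.04 to 0.17 with 1 array left out, the lowest of these without knockout replicate 2.

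Over all probe sets the count of calls was 538, and 993 with the replicate block, 171 without wild-type replicate 1, 190 without wild-type replicate 2, 363 without wild-type replicate 3, and 860, 125 and 302 without knockout replicates 1, 2 and 3. The deviations of same-numbered arrays correlated at 0.054, 0.133 and 0.322. Knockout replicate 1 correlated best with wild-type replicate 2 (0.22), and knockout replicates 2 and 3 with the wild-type array of their own number. Deviations from a mean of 3 arrays are tied to each other, so these correlations cannot show whether same-numbered samples share more than a number. As an alternative chosen after seeing the data, the lists were counted without knockout replicate 2 and without knockout replicate 3. Without replicate 2, Trem1 (1.85, limma adjusted p = 0.0359) was the 1 listed gene that passed outside the members. Without replicate 3, 0 of the 2 granule lists' genes passed and 1 transcription factor gene did (Cebpd). Also past the threshold there were 2 neutrophil markers (Trem1 and Asprv1), 2 monocyte, 6 macrophage and 1 dendritic cell marker. Fewer arrays were fitted in these counts. Signal near the array median limits what can be read from Ngp, Camp, Ltf, Elane, Mpo and the wild-type arrays of Lcn2, where a low transcript level and none look alike.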
